A study of Saccharomyces cerevisiae with 41 samples.

Results

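Wild-type (WT) budding yeast 60 min after UV irradiation was compared with unirradiated WT, which takes 4 of the 41 arrays of the series: 2 arrays at 60 min and 2 unirradiated arrays, chosen by strain, time and replicate number in the sample titles. All strains are haploid Saccharomyces cerevisiae of the YPH499 background, grown overnight in glucose-rich YPD at 30 °C to an OD600 of 1.0. Irradiated cells were taken up in water, given 100 J/m2 of UV-C from a Stratalinker, and left to recover in fresh YPD with shaking. Unirradiated cells had a mock treatment, and no mock-treated array at 60 min was used here, so the change at 60 min takes in whatever the handling in water and the new medium did to the cells. For comparison the text uses WT at 15 and 30 min after the same dose, and deletion strains unirradiated and 60 min after it: rad4, which lacks a damage-binding subunit of nucleotide excision repair, rad23, which lacks its partner, snf1, which lacks the yeast AMP-activated protein kinase, snf1rad23, which lacks both Snf1 and Rad23, and mig3, which lacks a repressor related to the glucose repressor Mig1. The labels call the arrays of a group biological replicates and say no more of the cultures. The p-values therefore reflect the spread between these arrays alone, which may be technical.

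UV-C makes pyrimidine dimers and 6-4 photoproducts in DNA, which nucleotide excision repair removes. Stalled replication forks and repair gaps activate the checkpoint kinases Mec1 and Rad53, and Rad53 acts through the kinase Dun1, which inactivates the repressor Crt1 (gene RFX1) at the genes of ribonucleotide reductase, the enzyme that makes deoxynucleotides. The same checkpoint slows the cell cycle, and yeast under many kinds of stress lowers the genes of ribosome production and raises a common set of stress genes.

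RNA was hybridised to Affymetrix Yeast 2.0 arrays, and values are log2 array signal. A change is the difference of 2 group means on the log2 scale ± SE, with its Benjamini-Hochberg adjusted p from a limma fit to all 41 arrays, and a probe set is called at an adjusted p under 0.05. Values of each array are given as replicate 1 and then replicate 2, at 60 min first and unirradiated next. Because the 60 min arrays disagreed, the fit was repeated with each of them alone, the other left out of the fit. A change that was called with both arrays and with each alone, in 1 direction, is described as held in each array. A lone array is assumed to vary like the arrays of the other groups.

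The 60 min arrays were further apart than the replicates of any other WT group. Of 5380 probe sets tested, 780 were over 2-fold apart between them, 455 higher on replicate 2 and 325 higher on replicate 1, against 41 between the unirradiated WT arrays, 22 at 15 min and 16 at 30 min. Each was nearer to arrays of other groups than to the other. The nearest array to replicate 1 was unirradiated mig3 replicate 2, with a mean absolute difference of 0.324 and 239 probe sets over 2-fold apart, and its nearest WT array was 15 min replicate 1 at 0.398. The nearest array to replicate 2 was mig3 60 min replicate 1, at 0.364 with 308 probe sets over 2-fold apart. Nearly as near were mig3 30 min replicate 2, at 0.378, and snf1 60 min replicate 1, at 0.379 with 301 over 2-fold apart. Neither read like a mig3 array at MIG3 itself, the gene that mig3 lacks. Its signal was 8.79 on replicate 1 and 8.20 on replicate 2, against 9.78 and 9.50 on the unirradiated WT arrays and 1.97 on each unirradiated mig3 array. Over MIG3, SNF1, RAD23 and RAD4, the changes against unirradiated WT lay between -1.16 and -0.395 on replicate 1 and between -1.44 and 0.814 on replicate 2. The control probe set for the 3′ part of 18S ribosomal RNA read 2.855 on replicate 1 and 7.279 on replicate 2 at 60 min, against 12.58 and 7.068 on the unirradiated arrays. That for the 3′ part of 25S ribosomal RNA read 7.315 and 9.135 at 60 min, against 14.91 and 14.7 unirradiated. All the budding yeast 25S controls read lower on both 60 min arrays than on both unirradiated arrays. The part of these differences in the changes below was not tested, beyond the fits with each array alone. Those fits cannot set apart a shift that both 60 min arrays share.

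With both arrays, 1647 probe sets were called at 60 min (30.6% of those tested), 652 higher (12.1%) and 995 lower (18.5%). Replicate 1 alone gave 371 higher and 570 lower (6.9% and 10.6%), and replicate 2 alone gave 1114 higher and 1262 lower (20.7% and 23.5%). The changes that held in each array were 570 in all, 222 higher (4.13%) and 348 lower (6.47%), which is 34.6% of the calls made with both. Another 847 calls, 341 higher and 506 lower, were made with replicate 2 alone but not with replicate 1, 57 higher and 91 lower with replicate 1 alone but not with replicate 2, and 32 higher and 50 lower with neither alone. In the single-array fits 19 probe sets were called higher on replicate 1 and lower on replicate 2, and 16 the other way. Of the held changes, 82 rises and 104 falls were at least 2-fold on each array. The median over all tested probe sets was -0.08 on replicate 1 and -0.02 on replicate 2. The split of calls depends on the scaling: quantile normalization gave 817 higher and 805 lower with both arrays and 272 and 239 held, and median centring gave 842 and 791 with both and 300 and 251 held. Without unirradiated replicate 1 the calls with both arrays were 1090 and 422 held, and without unirradiated replicate 2 they were 963 and 337 held. With arrays weighted by how well they fitted, 248 were called with both arrays and 245 held. The groups did not overlap, whatever the test, for 54.7% of probe sets. The fit borrows its spread from groups whose replicates agreed better, and on the 4 arrays alone limma called 0 probe sets, with 947 at an unadjusted p under 0.05.

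**Figure D1:**
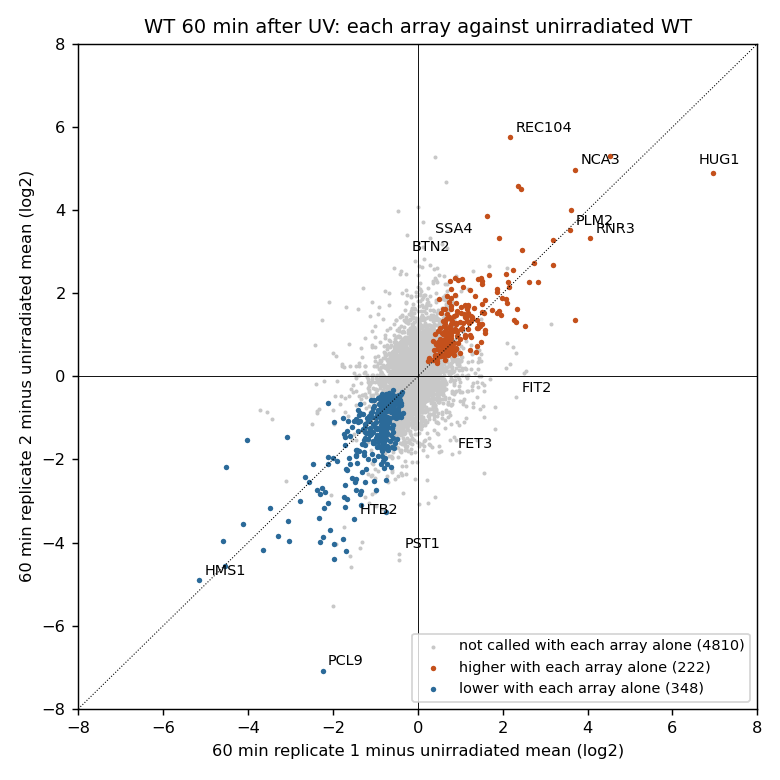
Change of each tested probe set at 60 min on replicate 1 (x axis) and on replicate 2 (y axis), both in log2 units against the mean of the unirradiated arrays, which the axes share. The 222 probe sets that were higher and the 348 that were lower with each array alone lie in the upper right and lower left quadrants around the dotted line of equal change, while SSA4 and BTN2 rose far on replicate 2 only and FIT2 on replicate 1 only.

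The genes of deoxynucleotide supply and their regulators rose at 60 min, and most of the rise was present on each array. Of 9 genes in the list of ribonucleotide reductase genes and Crt1 targets, 7 were higher with both arrays and 6 held in each, beside 12.1% and 4.13% of all probe sets, and none was lower with both. HUG1, a small checkpoint-induced inhibitor of ribonucleotide reductase, read 13.56 and 11.50 at 60 min, against 6.54 and 6.67 unirradiated. Its 60 min arrays stood far above the unirradiated ones but also apart from each other, replicate 2 minus replicate 1 being -2.06. The change was 5.93 ± 0.44 (adjusted p = 7.51e-09), the largest rise over all probe sets tested with both arrays, and it was 6.95 ± 0.40 on replicate 1 alone and 4.90 ± 0.40 on replicate 2 alone. RNR3, the damage-induced large subunit, read 12.86 and 12.12 at 60 min, against 9.03 and 8.57 unirradiated, without overlap between the groups, and rose by 3.69 ± 0.38 (adjusted p = 4.53e-07). The small subunit genes moved less but evenly. RNR2 read 15.04 and 14.92 at 60 min, against 14.30 and 14.21 unirradiated (change 0.72 ± 0.08, adjusted p = 9.88e-07). RNR4 read 14.94 and 14.93 at 60 min, against 14.27 and 14.27 unirradiated, and changed by 0.66 ± 0.09 (adjusted p = 1.29e-05). On both genes the arrays of a group nearly coincided and the groups were apart.

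Regulators of this branch rose on both arrays. DUN1, the kinase that relays the checkpoint to this branch, read 11.26 and 11.31 at 60 min, against 9.75 and 9.76 unirradiated, nearly the same value on both arrays of each group, and rose by 1.53 ± 0.14 (adjusted p = 1.04e-07). RFX1, which codes for the repressor Crt1 and is itself a Crt1 target, read 10.20 and 10.79 at 60 min, against 9.42 and 9.42 unirradiated, and rose by 1.08 ± 0.20 (adjusted p = 3.37e-04). PLM2, a forkhead-associated transcription factor, read 10.01 and 9.94 at 60 min, against 6.36 and 6.47 unirradiated, and its rise of 3.56 ± 0.31 (adjusted p = 3.90e-08) was nearly equal on both 60 min arrays. RNR1, the main large subunit, was called only through replicate 1. It read 14.05 and 12.98 at 60 min, against 12.71 and 12.50 unirradiated, with replicate 2 not far above the unirradiated arrays, and changed by 1.44 ± 0.27 on replicate 1 alone (adjusted p = 8.50e-04) and by 0.37 ± 0.27 on replicate 2 alone (adjusted p = 0.28). Without unirradiated replicate 2 it was not called (adjusted p = 0.0981). The inhibitors SML1 and DIF1 were not called with both arrays: SML1 changed by -0.04 ± 0.12 (adjusted p = 0.856) and DIF1 by -0.19 ± 0.18 (adjusted p = 0.448), while replicate 2 alone placed DIF1 lower by 0.55 (adjusted p = 0.0196).

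**Figure D2:**
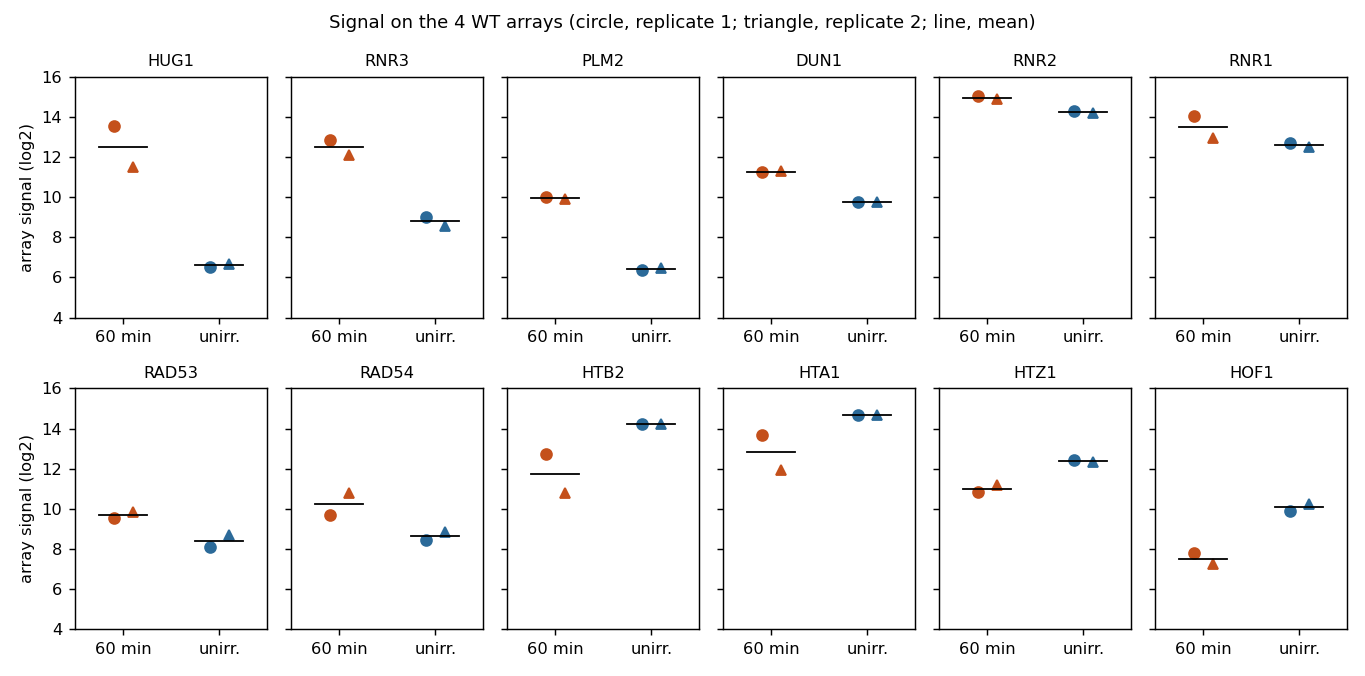
Array signal (log2, y axis) of 12 genes on the 60 min arrays (left, orange) and the unirradiated arrays (right, blue) of WT, with circles for replicate 1, triangles for replicate 2 and lines for the mean of 2 arrays. In HUG1, HTB2 and HTA1 the 60 min arrays lie well apart yet both on the same side of the unirradiated arrays, while in DUN1, RNR2 and PLM2 they nearly coincide.

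Of 18 checkpoint genes, 2 were higher and 3 lower with both arrays, and 1 rise held, beside 4.13% of all probe sets. RAD53, the effector kinase, read 9.53 and 9.82 at 60 min, against 8.10 and 8.71 unirradiated, and rose by 1.27 ± 0.22 (adjusted p = 2.11e-04), with the 60 min arrays above both unirradiated arrays. MEC1, the sensor kinase, read 9.46 and 7.74 at 60 min, against 9.81 and 9.74 unirradiated. It fell with both arrays by 1.17 ± 0.28 (adjusted p = 0.0032), but replicate 1 lay near the unirradiated arrays and did not call it alone (adjusted p = 0.14).

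Homologous recombination gave 6 of 19 genes higher and 1 lower with both arrays, and 4 rises held, beside the same 4.13%. RAD54, a DNA translocase of strand exchange, read 9.70 and 10.78 at 60 min, against 8.45 and 8.83 unirradiated, and rose by 1.6 ± 0.22 (adjusted p = 1.80e-05). PSY3 read 8.39 and 8.49 at 60 min, against 7.10 and 7.61 unirradiated, a rise of 1.08 ± 0.23 (adjusted p = 0.00131). Outside the recombination list, DIN7, a damage-induced mitochondrial nuclease, read 9.41 and 9.73 at 60 min, against 8.12 and 8.46 unirradiated. DIN7 rose by 1.28 ± 0.18 (adjusted p = 1.57e-05).

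The genes of nucleotide excision repair, which removes the photoproducts themselves, moved little on replicate 1. Of 24 tested, 6 were higher and 3 lower with both arrays and 1 rise held, beside 12.1%, 18.5% and 4.13% of all probe sets. The list's median was -0.06 on replicate 1 and 0.21 on replicate 2, beside -0.08 and -0.02 over all genes. The held rise was that of RFA2, a subunit of replication protein A, which coats single-stranded DNA: it read 12.85 and 13.89 at 60 min, against 12.30 and 12.22 unirradiated, and rose by 1.11 ± 0.22 (adjusted p = 7.88e-04). Its partner RFA1 rose by 1.94 ± 0.16 on replicate 2 but changed by 0.28 ± 0.16 on replicate 1 (adjusted p = 0.252), so its call with both arrays (1.11 ± 0.28, adjusted p = 0.00462) rested on replicate 2. RAD4, the damage-binding subunit, read 7.59 and 8.52 at 60 min, against 8.53 and 8.96 unirradiated: it was lower on replicate 1 alone by 1.16 (adjusted p = 4.72e-04) and changed by -0.22 ± 0.20 on replicate 2 alone (adjusted p = 0.393). RAD2, the nuclease that cuts 3′ of the lesion, read 8.79 and 10.35 at 60 min, against 8.74 and 9.09 unirradiated, and was called on replicate 2 alone (1.44 ± 0.29, adjusted p = 3.51e-04) but not with both arrays (adjusted p = 0.128). PHR1, the photolyase, which reverses dimers in visible light, read 8.40 and 8.44 at 60 min, against 9.23 and 9.02 unirradiated, and did not pass the test (-0.70 ± 0.35, adjusted p = 0.135). MAG1, a glycosylase for alkylated bases, and its neighbour DDI1, with which it shares a promoter region, both rose with replicate 2 alone and were near the unirradiated level on replicate 1. MAG1 read 10.10 and 12.01 at 60 min, against 9.61 and 9.90 unirradiated (change on replicate 2 alone 2.25 ± 0.30, adjusted p = 3.93e-06). DDI1 read 9.69 and 12.32 at 60 min, against 9.56 and 9.78 unirradiated (change on replicate 2 alone 2.65 ± 0.23, adjusted p = 1.82e-08). RAD30, the translesion polymerase that copies past dimers, rose by 0.63 ± 0.19 with both arrays (adjusted p = 0.0163) and was not called on replicate 1 alone (adjusted p = 0.258) or without unirradiated replicate 1 (adjusted p = 0.107).

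All 9 histone genes tested were lower at 60 min with both arrays, and 7 of them held in each array, beside 6.47% of all probe sets. Histone transcripts are made in S phase with DNA replication. In bulk RNA, fewer cells in a phase and less RNA per cell cannot be told apart. The list's median was -0.87 on replicate 1 and -1.23 on replicate 2. HTB2, which codes for H2B, read 12.72 and 10.79 at 60 min, against 14.21 and 14.23 unirradiated, with replicate 2 much the lower of the 60 min arrays, and fell by 2.47 ± 0.34 (adjusted p = 1.46e-05). HTA1, an H2A gene, read 13.69 and 11.96 at 60 min, against 14.68 and 14.68 unirradiated, in the same order, and fell by 1.86 ± 0.32 (adjusted p = 1.59e-04). HTZ1, the variant H2A.Z, which is not tied to S phase, read 10.85 and 11.16 at 60 min, against 12.45 and 12.33 unirradiated, and fell by 1.38 ± 0.14 (adjusted p = 2.86e-07), here with replicate 1 the lower. HTA2, HTB1, HHT1 and HHT2 also held, with falls of 0.70 to 1.41. HHF1, for H4, was lower with both arrays but missed the threshold on replicate 1 alone (adjusted p = 0.0602). HHO1, for the linker histone, was lower by 0.67 with both arrays at an adjusted p of 0.0478, and missed it on either array alone (adjusted p = 0.0788 on replicate 1 and 0.166 on replicate 2), with median centring (0.0633), quantile normalization (0.068) and the replicate block (0.052), and without unirradiated replicate 2 (0.295). The pairs of genes for 1 histone are close in sequence, so a probe set may read both copies.

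Genes of the later cell cycle were lower as well. Of 24 genes of G2/M and mitotic exit, 21 were lower with both arrays and 15 held in each. The shares over all probe sets were 18.5% and 6.47%. None of the 24 was higher, and their median was -0.78 on replicate 1 and -1.48 on replicate 2. CLB1, a mitotic cyclin, read 10.13 and 9.23 at 60 min, against 11.62 and 11.75 unirradiated, and fell by 2.0 ± 0.26 (adjusted p = 7.13e-06). BUD4, which marks the next bud site, read 10 and 8.58 at 60 min, against 11.30 and 11.36 unirradiated, a fall of 2.04 ± 0.27 (adjusted p = 8.68e-06). HOF1, which acts in cytokinesis, read 7.77 and 7.23 at 60 min, against 9.89 and 10.23 unirradiated, and fell by 2.56 ± 0.30 (adjusted p = 2.63e-06). CHS2, the septum chitin synthase, fell by 1.25 on replicate 1 alone and by 2.53 on replicate 2 alone.

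Of 22 genes of M/G1 and the daughter cell, read as cells separate, 15 were lower and 1 higher with both arrays, and 9 falls held. The shares over all probe sets were 18.5%, 12.1% and 6.47%. DSE1, a daughter-specific gene, read 9.10 and 9.34 at 60 min, against 11.64 and 11.87 unirradiated, and fell by 2.54 ± 0.41 (adjusted p = 9.61e-05), to the same degree on both arrays. DSE2, for a septum glucanase, read 10.47 and 9.39 at 60 min, against 12.90 and 12.71 unirradiated, a fall of 2.87 ± 0.53 (adjusted p = 3.34e-04). PCL9, a cyclin for the kinase Pho85, read 8.69 and 3.85 at 60 min, against 10.98 and 10.89 unirradiated, so that replicate 2 minus replicate 1 was -4.85. It held in each array, with falls of 2.24 (adjusted p = 0.0305) and 7.09 (adjusted p = 9.73e-08). EGT2, a cell separation gene, read 11.61 and 8.09 at 60 min, against 13.76 and 13.49 unirradiated, and was called on replicate 2 alone (adjusted p = 6.71e-06) but not on replicate 1 alone (adjusted p = 0.0724). HO, which codes for the mating-type switching endonuclease and is read in mother cells in late G1, read 6.82 and 7.13 at 60 min, against 10.09 and 10.52 unirradiated, and fell by 3.33 ± 0.43 (adjusted p = 8.58e-06).

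The G1/S genes moved both ways. Of 35 tested, 14 were higher and 5 lower with both arrays and 5 rises held, beside 12.1%, 18.5% and 4.13% of all probe sets. The medians of the list were 0.34 and 0.38 on replicates 1 and 2. PCL1, a G1 cyclin for Pho85, read 9.54 and 8.83 at 60 min, against 6.89 and 7.53 unirradiated, and rose by 1.97 ± 0.38 (adjusted p = 5.28e-04). CLB6, an S-phase cyclin, read 10.25 and 8.73 at 60 min, against 8.19 and 7.85 unirradiated, a rise on replicate 1 alone of 2.23 ± 0.40 (adjusted p = 4.80e-04), while replicate 2 alone did not call it (0.72 ± 0.40, adjusted p = 0.147). CLN2, a G1 cyclin, read 10.85 and 9.0 at 60 min, against 11.66 and 11.43 unirradiated, and its fall rested on replicate 2 (adjusted p = 4.50e-07 alone, against 0.0911 for replicate 1 alone).

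Ribosome biogenesis genes, which code for the factors that process ribosomal RNA and assemble subunits, were mostly lower, with fewer called on replicate 1. Of 103 tested, 78 were lower and 0 higher with both arrays, 27 were lower on replicate 1 alone, 73 on replicate 2 alone, and 19 held in each. Over all probe sets 18.5% were lower and 12.1% higher with both arrays, and 6.47% were held falls. The medians of the list were -0.54 and -0.85. UTP20, of the small subunit processome, read 11.32 and 9.93 at 60 min, against 12.13 and 12.11 unirradiated, and fell by 1.50 ± 0.24 (adjusted p = 8.23e-05). CIC1, a large subunit assembly factor, read 11.93 and 11.73 at 60 min, against 13.06 and 13.13 unirradiated, and fell almost equally on both arrays, by 1.26 ± 0.13 (adjusted p = 3.62e-07). RRP5, needed for both subunits, fell by 1.38 ± 0.24 (adjusted p = 2.05e-04). NSR1, nucleolin, read 13.49 and 12.29 at 60 min, against 13.81 and 13.81 unirradiated, and replicate 1 alone did not call it (adjusted p = 0.232).

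The 125 cytosolic ribosomal protein genes gave 28 lower with both arrays, 63 lower on replicate 2 alone and 0 lower on replicate 1 alone. With both arrays 18.5% of all probe sets were lower, and the shares on each array alone are given above. Of the 125 genes, 114 read lower on replicate 2 than on replicate 1. RPL9B read 13.82 and 12.47 at 60 min, against 14.0 and 14.07 unirradiated, with replicate 1 just below the unirradiated arrays and replicate 2 well below. RPS7B read 14.15 and 13.12 at 60 min, against 14.46 and 14.53 unirradiated, and its change was -0.34 ± 0.17 on replicate 1 alone (adjusted p = 0.173) and -1.38 ± 0.17 on replicate 2 alone (adjusted p = 1.80e-06). RPS28B, for a small subunit protein, went the other way relative to unirradiated cells. It read 13.96 and 13.72 at 60 min, against 12.42 and 12.50 unirradiated: it rose by 1.38 ± 0.12 (adjusted p = 3.37e-08) and was the only change that held over the probe set taken for each gene. Many of these genes have a near-identical paralog, and a probe set may read both. Mitochondrial ribosome genes, 69 tested, gave 4 higher and 2 lower with both arrays, and 1 rise held. The shares over all probe sets were 12.1%, 18.5% and 4.13%. The medians of the list were 0.02 and 0.20. The held rise was MRPL51, at 11.31 and 11.40 at 60 min, against 10.32 and 10.92 unirradiated. Its change of 0.74 ± 0.19 with both arrays (adjusted p = 0.00466) dropped to 0.43 without unirradiated replicate 1 and was not called (adjusted p = 0.139).

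**Figure D3:**
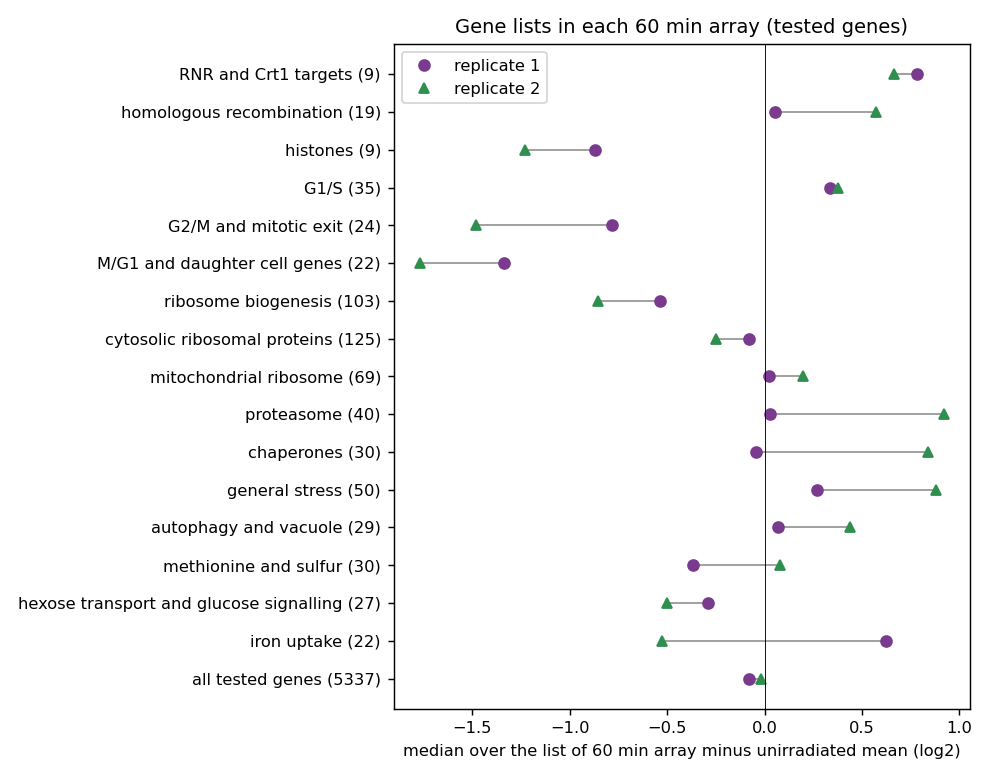
Median change (log2, x axis) of each gene list on 60 min replicate 1 (circles) and replicate 2 (triangles) against the unirradiated mean, with the number of tested genes beside each list. Histone, G2/M, M/G1 and ribosome biogenesis lists lie below 0 on both arrays, proteasome and chaperone lists are near 0 on replicate 1 and above 0 on replicate 2, and iron uptake genes are on opposite sides.

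Nearly all proteasome genes were higher on replicate 2 only. Of 40 genes, 38 were higher on replicate 2 alone and 1 on replicate 1 alone, 39 read higher on replicate 2 than on replicate 1, and the medians were 0.03 on replicate 1 and 0.92 on replicate 2. With both arrays 17 were called higher, and only NPL4, a partner of the segregase Cdc48, held, beside 12.1% and 4.13% of all probe sets. The shares over all probe sets on each array alone are given above. NPL4 read 11.24 and 12.60 at 60 min, against 10.60 and 10.89 unirradiated, with changes of 0.50 ± 0.17 (adjusted p = 0.0404) and 1.86 ± 0.17 (adjusted p = 2.16e-08) on the arrays alone. RPT2, a base ATPase, read 12.66 and 13.95 at 60 min, against 12.27 and 12.84 unirradiated, so replicate 1 lay between the unirradiated arrays. UFD1, another Cdc48 partner, read 9.93 and 11.66 at 60 min, against 9.97 and 10.09 unirradiated, again with replicate 1 level with unirradiated cells, and UMP1, an assembly chaperone, changed by 0.28 ± 0.23 and 1.13 ± 0.23 on replicates 1 and 2.

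Chaperone genes were also called more often on replicate 2. Of 30 tested, 19 were higher on replicate 2 alone and 4 on replicate 1 alone, 7 were higher and 2 lower with both arrays, and 3 rises held. Over all probe sets 12.1% were higher and 18.5% lower with both arrays, and 4.13% were held rises. SSA4, the inducible Hsp70, read 10.11 and 13.15 at 60 min, against 9.66 and 9.99 unirradiated. Its change was 0.28 ± 0.49 on replicate 1 alone (adjusted p = 0.745) and 3.32 ± 0.49 on replicate 2 alone (adjusted p = 1.52e-05). HSP42, a small heat shock protein that gathers aggregates, read 12.05 and 14.72 at 60 min, against 11.69 and 12.10 unirradiated, and BTN2, a protein-sorting partner of it, read 9.69 and 13.35 at 60 min, against 9.59 and 10.32 unirradiated. For both genes replicate 1 lay among the unirradiated arrays. CUR1, the BTN2 paralog, held: it read 10.14 and 11.63 at 60 min, against 9.23 and 9.30 unirradiated, and rose by 1.62 ± 0.29 (adjusted p = 2.83e-04). HSP26, another small heat shock protein, read 12.58 and 13.16 at 60 min, against 10.15 and 10.10 unirradiated, with both 60 min arrays above 12 and both unirradiated arrays near 10, and rose by 2.75 ± 0.38 (adjusted p = 1.57e-05).

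Of 50 general stress genes, 19 were higher and 3 lower with both arrays, and 9 rises and 2 falls held. The shares over all probe sets were 12.1%, 18.5%, 4.13% and 6.47%. The medians of the list were 0.27 and 0.88. HSP12, a membrane-binding stress protein, read 14.50 and 14.49 at 60 min, against 11.77 and 11.77 unirradiated, the same level on both arrays of each group, and rose by 2.73 ± 0.36 (adjusted p = 8.68e-06). HSP12 also read 14.10 and 14.49 on the unirradiated mig3 arrays, which resembled 60 min replicate 1 most. HUG1 read 11.56 and 11.86 there. MOH1, a stationary phase gene, read 7.97 and 5.61 at 60 min, against 4.48 and 4.03 unirradiated, and rose by 2.54 ± 0.49 (adjusted p = 5.08e-04). GSY1, glycogen synthase, read 8.85 and 10.49 at 60 min, against 12.21 and 11.68 unirradiated, lower on both 60 min arrays, and fell by 2.27 ± 0.39 (adjusted p = 1.86e-04). SOL4, of the pentose phosphate pathway, rose by 2.36 ± 0.60 with both arrays (adjusted p = 0.00496) and narrowly missed the threshold on replicate 1 alone (adjusted p = 0.0542).

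Oxidative stress defence gave 12 of 28 genes higher and 2 lower with both arrays, and 5 rises held. The shares over all probe sets were 12.1%, 18.5% and 4.13%. GTT1 and ECM4, both glutathione transferases, rose evenly: GTT1 read 13.58 and 13.33 at 60 min, against 12.24 and 12.02 unirradiated, a held rise of 1.33 ± 0.20 (adjusted p = 4.46e-05), and ECM4 read 11.88 and 11.61 at 60 min, against 10.49 and 10.42 unirradiated, a held rise of 1.29 ± 0.17 (adjusted p = 1.31e-05). YAP1, the main oxidative stress activator, read 11.41 and 13.05 at 60 min, against 11.15 and 11.23 unirradiated, and only replicate 2 stood clear of the unirradiated arrays. Of 29 autophagy and vacuole genes, 8 were higher and 1 lower with both arrays and 5 rises held, beside the same shares. ATG1, the initiating kinase, read 9.0 and 10.31 at 60 min, against 7.91 and 8.02 unirradiated, and rose by 1.69 ± 0.30 (adjusted p = 2.06e-04). ATG13, its regulatory partner, rose by 1.31 ± 0.26 (adjusted p = 7.52e-04). ATG8, which coats the autophagosome membrane, read 11.42 and 13.11 at 60 min, against 11.54 and 11.61 unirradiated, a rise on replicate 2 alone (adjusted p = 2.03e-07).

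Genes of glucose sensing and transport were mostly lower where called. Of 27 hexose transport and glucose signalling genes, 11 were lower and 1 higher with both arrays, and 6 falls and 1 rise held. The shares over all probe sets were 18.5%, 12.1%, 6.47% and 4.13%. HXT7, a high-affinity glucose transporter, read 7.53 and 8.09 at 60 min, against 12.01 and 11.28 unirradiated, and fell by 3.84 ± 0.42 (adjusted p = 8.71e-07). Its probe set may also read HXT6, whose sequence is nearly the same. MTH1, a corepressor of the HXT genes, read 8.12 and 6.98 at 60 min, against 9.97 and 9.77 unirradiated, and fell by 2.32 ± 0.40 (adjusted p = 1.67e-04). RGI1, which is needed for energy metabolism in respiration, read 10.01 and 12.49 at 60 min, against 14.11 and 13.94 unirradiated, a held fall in which replicate 1 went much lower. Of 38 glucose-repressed carbon metabolism genes, 6 were higher and 4 lower, with 1 rise and 3 falls held, beside the same shares. Of the 4 genes deleted in the other strains, 2 were lower in WT with both arrays, RAD4 and MIG3, and only MIG3 held, with a fall of 1.15 ± 0.17 (adjusted p = 2.73e-05).

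INO2, the activator of phospholipid genes, fell on both arrays. It read 7.90 and 7.36 at 60 min, against 11.26 and 11.14 unirradiated, and fell by 3.57 ± 0.25 (adjusted p = 4.92e-09). OPI1, its inhibitor, read 9.02 and 9.37 at 60 min, against 10.48 and 10.90 unirradiated, and fell by 1.49 ± 0.28 (adjusted p = 4.25e-04). INO1, an INO2 target that makes inositol phosphate, split the arrays: it read 5.64 and 9.23 at 60 min, against 6.10 and 4.92 unirradiated, and was called on replicate 2 alone (adjusted p = 4.32e-06) and not on replicate 1 alone (adjusted p = 0.894). Over the 19 phospholipid and inositol genes, 1 was higher and 4 lower with both arrays, and 2 falls held. The shares over all probe sets were 12.1%, 18.5% and 6.47%. Of 30 methionine and sulfur genes, 5 were lower and 1 higher with both arrays and 3 falls held, beside the same shares. MET6, methionine synthase, read 13.68 and 13.62 at 60 min, against 14.55 and 14.62 unirradiated, and fell by 0.93 ± 0.14 (adjusted p = 3.73e-05).

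Many iron uptake genes differed between the 60 min arrays. The median of 22 genes was 0.62 on replicate 1 and -0.53 on replicate 2, and 17 read lower on replicate 2. On replicate 1 alone 8 were higher and 2 lower, on replicate 2 alone 6 were higher and 9 lower, and 4 rises and 2 falls held. FET3, the multicopper ferroxidase, read 14.10 and 11.43 at 60 min, against 13.34 and 13.24 unirradiated, so that the arrays lay on either side of unirradiated cells, higher by 0.81 ± 0.21 (adjusted p = 0.00939) and lower by 1.86 (adjusted p = 5.33e-07). FIT2, a cell wall mannoprotein that retains siderophores, read 13.33 and 10.51 at 60 min, against 11.24 and 10.78 unirradiated, a rise on replicate 1 alone of 2.32 ± 0.32 (adjusted p = 3.39e-05). The held shares over all probe sets were 4.13% for rises and 6.47% for falls. SIT1, a siderophore transporter, held, at 12.96 and 11.97 at 60 min, against 10.78 and 10.52 unirradiated, a rise of 1.81 ± 0.25 (adjusted p = 1.45e-05). CCC2, the copper transporter that serves Fet3, held as well, at 11.05 and 10.52 at 60 min, against 9.66 and 9.29 unirradiated, a rise of 1.31 ± 0.20 (adjusted p = 6.14e-05).

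The largest held rises also included genes of other roles. YPR015C, an uncharacterised zinc finger protein, read 8.56 and 9.31 at 60 min, against 4.27 and 3.76 unirradiated, and rose by 4.92 ± 0.39 (adjusted p = 1.48e-08). NCA3, which bears on expression of mitochondrial ATP synthase subunits, read 10.20 and 11.46 at 60 min, against 6.86 and 6.10 unirradiated, and rose by 4.35 ± 0.39 (adjusted p = 5.13e-08). BOP2, of unknown function, read 10.02 and 10.43 at 60 min, against 6.20 and 6.63 unirradiated, a rise of 3.81 ± 0.50 (adjusted p = 1.03e-05). REC104 and RIM4, known from meiosis, where they act in recombination and in RNA binding, rose on both arrays and much more on replicate 2: REC104 read 7.32 and 10.90 at 60 min, against 4.92 and 5.38 unirradiated, and RIM4 read 8.85 and 10.92 at 60 min, against 6.38 and 6.44 unirradiated. PUT4, the proline permease, read 7.22 and 9.45 at 60 min, against 5.42 and 4.30 unirradiated, and rose by 3.48 ± 0.60 (adjusted p = 1.77e-04). NDE2, an NADH dehydrogenase of the mitochondrial inner membrane, read 6.96 and 6.46 at 60 min, against 3.78 and 3.77 unirradiated, and rose by 2.93 ± 0.53 (adjusted p = 3.07e-04). SNO4, a chaperone of the Hsp31 family, read 5.40 and 5.51 at 60 min, against 2.18 and 2.26 unirradiated, and since its unirradiated signal lay within 0.2 of background its rise of 3.24 ± 0.30 (adjusted p = 9.95e-08) is a lower limit.

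Among the largest held falls, HMS1, a regulator of pseudohyphal growth, read 2.37 and 2.62 at 60 min, against 7.68 and 7.36 unirradiated, and fell by 5.03 ± 0.52 (adjusted p = 4.08e-07), by a similar amount on both arrays. Both 60 min values were close to background, whose 95th percentile reached 2.19 on the highest array, so the fall may be a limit. MGA1, a heat shock factor relative, read 4.67 and 5.29 at 60 min, against 9.50 and 8.99 unirradiated, and fell by 4.27 ± 0.40 (adjusted p = 1.26e-07). GAC1, which targets the phosphatase Glc7 to glycogen synthase, read 3.21 and 2.69 at 60 min, against 7.54 and 6.20 unirradiated, and fell by 3.92 ± 0.47 (adjusted p = 2.74e-06). ISF1 read 5.15 and 5.13 at 60 min, against 10.17 and 9.20 unirradiated, and fell by 4.55 ± 0.61 (adjusted p = 1.12e-05). Other large falls were present on replicate 2 only. PST1, a cell wall protein, read 12.46 and 8.64 at 60 min, against 12.99 and 12.83 unirradiated, and PHO3, an acid phosphatase, read 12.68 and 9.59 at 60 min, against 12.73 and 12.58 unirradiated, in each case with replicate 1 near the unirradiated level and replicate 2 more than 8-fold lower.

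As a check of the haploid MATa label, the 7 markers of MATa cells, among them MFA1 and MFA2 for the a-factor pheromone and STE2 for the alpha-factor receptor, were all above background on the 4 arrays. STE3, the receptor of MATalpha cells, read 6.52 and 5.52 at 60 min, against 5.48 and 5.86 unirradiated, also above background, and levels of different probe sets cannot be ranked. Of 3 tested markers of MATalpha or diploid cells, 1 was higher and 1 lower at 60 min with both arrays, and none held. Of the MATa markers, 1 was higher and 3 lower at 60 min with both arrays, and none held.

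Most held changes were also called at 30 min and few at 15 min. Of the 222 held rises, 131 were also called higher at 30 min (12.6% of all probe sets) and 18 at 15 min (1.32%), and of the 348 held falls 180 were called lower at 30 min (12.6%) and 62 at 15 min (4.59%). In either direction 25.1% of all probe sets were called at 30 min and 5.91% at 15 min. These times share the unirradiated arrays with 60 min, so the counts describe the members and are no independent repeat. Set against 30 min directly, 627 probe sets were higher and 882 lower at 60 min (11.7% and 16.4%), 1509 in all (28%), of which 211 and 319 kept their call without either 60 min array in turn. The total was 761 without 30 min replicate 1 and 592 without 30 min replicate 2. Of the held changes, 109 rises and 174 falls also passed this test in the same direction.

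HUG1 read 6.54 and 6.67 unirradiated, 6.54 and 6.17 at 15 min, 8.99 and 8.68 at 30 min and 13.56 and 11.50 at 60 min, a further rise after 30 min of 3.70 ± 0.44 (adjusted p = 1.71e-05). RNR3 rose after 30 min by 1.68 ± 0.38 (adjusted p = 0.00299). HSP12 was flat until 30 min, where it read 11.80 and 11.48, and rose by 2.85 ± 0.36 between 30 and 60 min (adjusted p = 2.54e-05). DSE1 read 11.71 and 11.64 at 30 min, at the unirradiated level, and fell by 2.46 ± 0.41 thereafter (adjusted p = 2.71e-04). TSL1, a subunit of trehalose synthase, dipped and returned: it read 11.40 and 10.97 unirradiated, 9.30 and 8.67 at 30 min and 12.07 and 13.13 at 60 min. MET28, an activator of sulfur genes, had the opposite course, with 3.78 and 4.02 unirradiated, 8.71 and 8.82 at 30 min and 4.47 and 7.07 at 60 min, where replicate 2 was much the higher. Mitochondrial ribosome genes had a median of -0.50 at 30 min against unirradiated cells, and 41 of 69 were higher at 60 min than at 30 min. Ribosome biogenesis genes were lower at 60 min than at 30 min in 65 of 103 cases, with a median of -0.02 at 30 min against unirradiated cells.

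**Figure D4:**
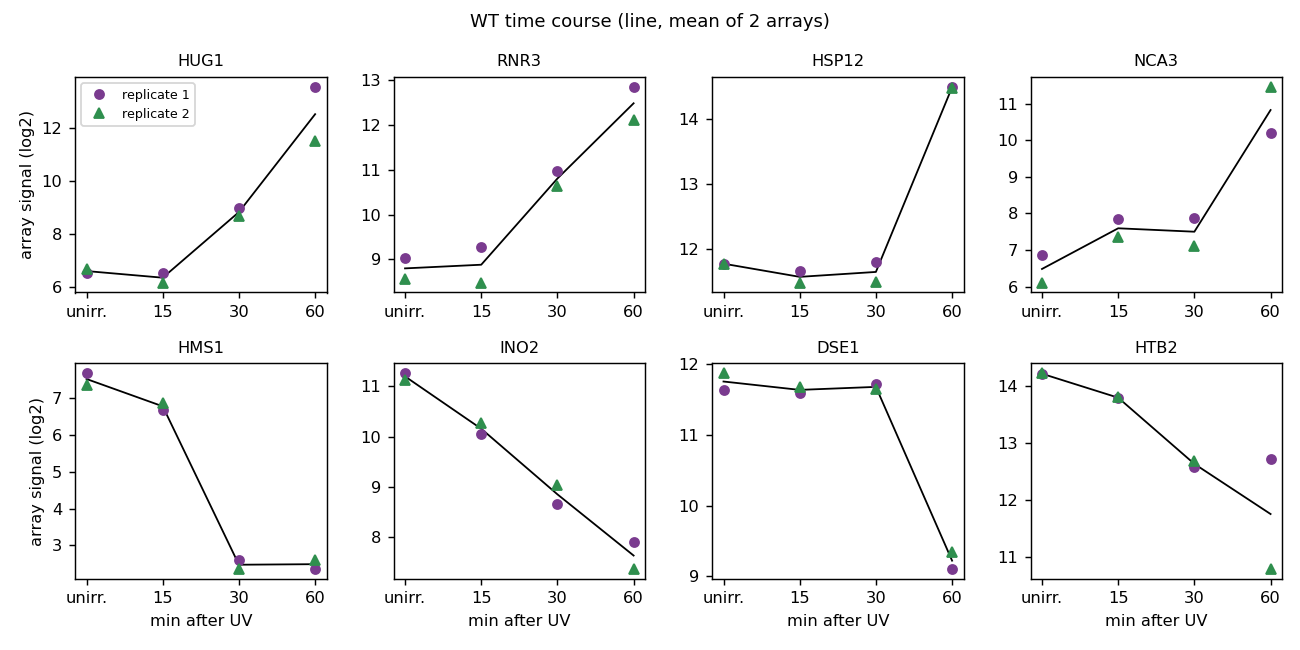
Array signal (log2, y axis) of 8 genes in WT unirradiated and 15, 30 and 60 min after UV, with circles for replicate 1, triangles for replicate 2 and a line through the means of 2 arrays. HMS1 reached its low level by 30 min, HSP12 and DSE1 changed only after 30 min, and HUG1, RNR3 and INO2 went on changing between 30 and 60 min.

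The deletion strains were irradiated and measured with unirradiated arrays of their own, so their changes at 60 min share no array with those of WT, although all were fitted with 1 spread per probe set. This comparison was added after the WT values were seen. Of the 222 held rises, 198 (89.2%) were called higher in rad4 at 60 min, where 26.9% of all probe sets were, 161 (72.5%) in snf1rad23 (27.2% of all), 139 (62.6%) in rad23 (23.8% of all), 127 (57.2%) in snf1 (22.4% of all) and 120 (54.1%) in mig3 (10.3% of all). Of the 348 held falls, 265 (76.1%) were called lower in rad4 (26.9% of all), 228 (65.5%) in snf1rad23 (25.6% of all), 211 (60.6%) in rad23 (19.3% of all), 192 (55.2%) in snf1 (21% of all) and 148 (42.5%) in mig3 (6.75% of all). In all 5 strains 56 of the rises and 57 of the falls were called, which is 25.2% and 16.4%, beside 3.14% and 1.71% of all tested probe sets, and 5 rises (2.25%) and 15 falls (4.31%) were called in none, beside 50.2% and 53.5% of all. The mig3 shares and the counts over all 5 strains carry a limit. Their mig3 baseline, the unirradiated mig3 arrays, were the arrays nearest to WT 60 min replicate 1, on which every held change also rests.

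Of the 341 rises that needed replicate 2, 255 (74.8%, beside 26.9% of all probe sets) were called in rad4, 244 (71.6%, beside 27.2%) in snf1rad23, 173 (50.7%, beside 23.8%) in rad23, 171 (50.1%, beside 22.4%) in snf1 and 159 (46.6%, beside 10.3%) in mig3. Of the 506 falls that needed it, 377 (74.5%, beside 26.9% of all) were called in rad4, 311 (61.5%, beside 25.6%) in snf1rad23, 258 (51%, beside 19.3%) in rad23, 182 (36%, beside 21%) in snf1 and 113 (22.3%, beside 6.75%) in mig3. In snf1 another 49 were called higher. Of the 57 rises that needed replicate 1, 29 (50.9%, beside 26.9% of all) were called in rad4, 21 (36.8%, beside 23.8%) in rad23, 16 (28.1%, beside 27.2%) in snf1rad23 and 12 (21.1%, beside 22.4%) in snf1. In snf1 15 were called lower. In snf1 and snf1rad23 these rises were thus called about as often as all probe sets. Of the 91 falls that needed replicate 1, 32 (35.2%, beside 21% of all) were called in snf1 and 23 (25.3%, beside 19.3%) in rad23. In rad4 and snf1rad23 30 (33%) each were called, beside 26.9% and 25.6% of all. These shares lay nearer to those of all probe sets than the shares of the falls that needed replicate 2 did. In snf1 the gap was small, 35.2% against 36%. In mig3 7 of the rises that needed replicate 1 (12.3%, beside 10.3% of all) and 4 of the falls (4.4%, beside 6.75%) were called. The unirradiated mig3 arrays, which serve there as the baseline, were the nearest to WT replicate 1, so the mig3 shares do not test the replicate 1 changes. Proteasome genes, higher on WT replicate 2 alone, were called higher in 37 of 40 cases in snf1, 21 in rad4 and 19 in mig3. In each of these strains the median proteasome change, 0.76, 0.41 and 0.57, lay between those of the WT arrays, 0.03 and 0.92.

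**Figure D5:**
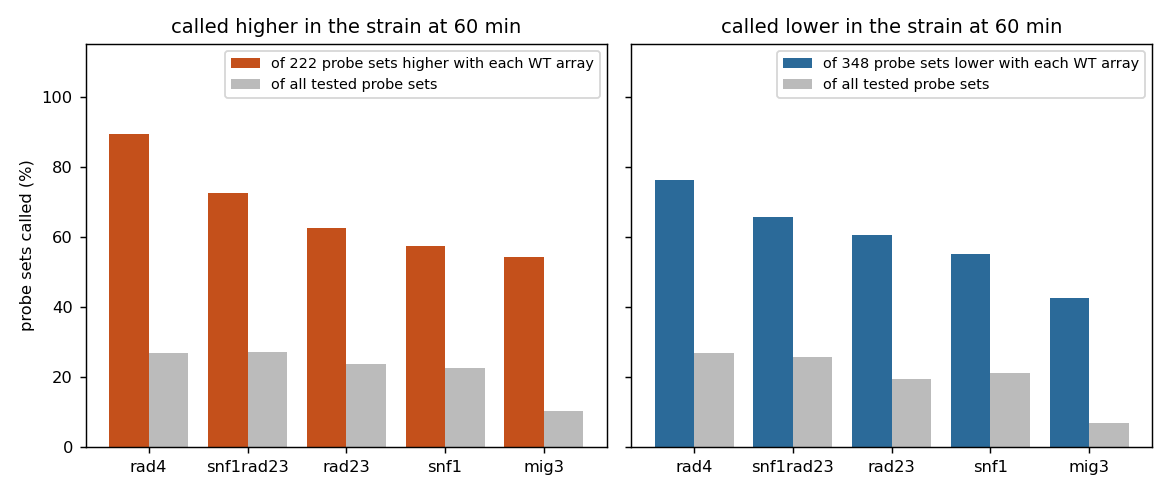
Share of the probe sets that held in each WT array (coloured bars, 222 higher at left and 348 lower at right) that were called in the same direction at 60 min in each deletion strain, with the share of all 5380 tested probe sets beside it in grey. Each coloured bar is more than 2 times its grey bar. The unirradiated mig3 arrays, the baseline of the mig3 bars, were the nearest to WT 60 min replicate 1.

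The response of WT was set against that of rad4, as a difference of responses, to ask how cells without the repair factor differ. It was higher in WT for 488 probe sets (9.07%) and lower for 458 (8.51%), 946 in all (17.6%), and 267 and 211 of these kept their call without either WT 60 min array in turn. The total was 1718 without WT 60 min replicate 2, 598 without WT unirradiated replicate 1, 518 without rad4 unirradiated replicate 1 and 488 without rad4 60 min replicate 2. The largest positive differences included MOT1, SNT2, USO1 and SMC5, which each fell in rad4. In WT, MOT1, an ATPase that removes TATA-binding protein, read 10.53 and 8.08 at 60 min, against 10.97 and 10.80 unirradiated, with most of the fall on replicate 2. In rad4 it read 4.84 and 5.13 at 60 min, against 10.76 and 10.63 unirradiated. Its difference of responses was 4.13 ± 0.66 (adjusted p = 1.96e-04). SNT2, a chromatin factor, gave 3.57 ± 0.44 (adjusted p = 2.82e-05), USO1, a vesicle tether, 2.44 ± 0.30 (adjusted p = 2.82e-05) and SMC5, a chromosome structure protein, 2.32 ± 0.36 (adjusted p = 1.24e-04). The coding lengths of these 4 genes are 3282 to 5604 bases, and the longest of 4 classes of tested genes ran from 1920 to 14733. Lengths of the other genes with a called difference were not compared, and a link to length was not tested. RNR1 changed by 0.91 ± 0.27 in WT and by -0.64 in rad4, a difference of 1.54 ± 0.38 (adjusted p = 0.00748) that missed the threshold without WT replicate 1 (adjusted p = 0.055). RNR2, RNR3, RNR4 and DUN1 had adjusted p-values between 0.447 and 0.862 in this test.

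Other differences lay in the unirradiated strains. HMS1, high in unirradiated WT, read 3.07 and 4.25 in rad4 at 60 min and 3.05 and 5.14 unirradiated, and its difference of responses of -4.59 ± 0.73 (adjusted p = 1.73e-04) also holds the difference between the unirradiated strains. HXT7, at 8.69 and 8.81 in rad4 at 60 min and 8.28 and 8.56 unirradiated, had a difference of -4.16 ± 0.59 (adjusted p = 8.41e-05). SPR2, a sporulation gene, was near background on 3 of the 4 WT arrays, at 2.04 and 3.29 at 60 min, against 2.04 and 2.05 unirradiated, and read 7.71 and 8.18 in rad4 at 60 min. Its difference of -5.28 ± 0.53 (adjusted p = 2.34e-06) is a limit, since the unirradiated arrays of both strains were at background.

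Against snf1, the WT response was higher for 512 probe sets (9.52%) and lower for 624 (11.6%), 1136 in all (21.1%), and 300 and 378 kept their call without either WT 60 min array in turn. The total was 712 without WT unirradiated replicate 2, 707 without snf1 unirradiated replicate 2 and 726 without snf1 60 min replicate 2. Here too the unirradiated levels differed. HSP12 read 15.02 and 14.60 in snf1 at 60 min and 14.80 and 14.73 in unirradiated snf1, close to the level that WT reached only at 60 min. The difference of responses was 2.67 ± 0.50 (adjusted p = 7.61e-04), and for HSP26, which read 12.79 and 12.85 in unirradiated snf1, 2.65 ± 0.54 (adjusted p = 0.00134). FLO1, a flocculin, gave 5.19 ± 0.43 (adjusted p = 9.90e-08), from a rise of 1.45 ± 0.30 in WT and a change of -3.74 in snf1. Its probe set may read other flocculin genes. Of the lists, ribosome biogenesis had the largest share of members with a called difference: 86 of 103 genes responded lower in WT, and in snf1 itself 44 of 103 were higher at 60 min and 0 lower, and the median was -0.72 in WT and 0.41 in snf1. RRN11, of the RNA polymerase I initiation factor, changed by 0.42 ± 0.21 in WT and 3.06 in snf1, a difference of -2.64 ± 0.30 (adjusted p = 3.41e-06). RNR1 had a smaller response in WT than in snf1 (-1.57 ± 0.38, adjusted p = 0.00526), as did PLM2 (-1.77 ± 0.44, adjusted p = 0.00596), with unirradiated levels of 4.38 and 4.23 for PLM2 in snf1.

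The falls of WT at 60 min were least frequent in the shortest genes, without a steady rise over the longer classes. In 4 classes by coding length, from short to long, 180 of 1342, 255 of 1327, 233 of 1334 and 317 of 1334 genes were lower with both arrays. Held falls made up 4.69%, 7.31%, 6.3% and 7.5% of them, and held rises 5.29%, 3.47%, 3.75% and 3.97%. No test was run of these differences. The median change with both arrays was -0.01, -0.05, -0.03 and -0.11 over these classes from short to long, and 9.99%, 10.8%, 10% and 11.5% of them held. By unirradiated signal, the lowest class gave 86 held rises and 53 held falls, and the highest 32 rises and 85 falls.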

How the data were processed

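The values were log2 signals of Affymetrix Yeast 2.0 arrays, which the authors deposited as 1 table of processed values. Per the submitters' processing notes they were made with GCRMA 2.10.0 in R 2.6.2, which subtracts background by probe sequence, normalizes by quantiles and summarises probes. GCRMA compresses dim probe sets to a floor, so a difference against such a value is a limit. For arrays, the number of arrays limits the precision.

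Probe sets with a log2 value of at least 4 on at least 2 arrays were kept, which left 5380. A model with a mean for each of 21 groups was fitted to the 41 arrays with limma 3.58.1 in R 4.3.3, which moderates the spread over probe sets, and p-values were adjusted by Benjamini-Hochberg over all 5380. It was refitted with each WT 60 min array left out. Every adjusted p in the text comes from these limma fits, or from a variant of them that is named beside it. The main fits were tested on simulated data in which all arrays had the same spread for a probe set. That test does not cover the wider spread of the WT 60 min arrays. The members, gene lists and tests were chosen with earlier results of these data known. For genes with several probe sets the one with the highest mean was used.

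Genes named were all members of the ribonucleotide reductase, histone, mating-type and deleted-gene lists, the 20 largest held rises and falls, the 12 largest differences each way between the 60 min arrays, up to 5 members of each other list by change and 3 by disagreement between arrays, and the largest differences from 30 min (12 each way), rad4 and snf1 (8 each way). Arrays were also compared after other scaling, filters, array weights, a replicate term and with arrays left out. Promoter sequences were not used here.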

Additional observations from a re-analysis of the deposited data

Results flagged for a closer look

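Differences between times or strains that passed their own test were singled out, and no group held enough arrays for a test of single outlying arrays. All are limma differences on the log2 scale at an adjusted p under 0.05, and nothing was tested about their cause.

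WT at 60 min differed from WT at 30 min in 1509 probe sets. Among the genes higher at 60 min, HUG1 gave 3.70, RNR3 1.68, HSP12 2.85, HSP26 3.42, NCA3 3.33 and TSL1, of trehalose synthesis, 3.62. GPM2, a phosphoglycerate mutase homolog, gave 2.96. PHM7 gave 3.94, with 5.57 and 7.0 at 60 min, against 2.55 and 2.15 at 30 min, and had read 6.42 and 5.46 unirradiated. Among the genes lower at 60 min, DSE1 gave -2.46, DSE2 -2.85, MET28 -2.99 and OPT2, an oligopeptide transporter homolog, -2.64.

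The response of WT at 60 min differed from that of rad4 in 946 probe sets. HMS1 gave -4.59, HXT7 -4.16 and SPR2 -5.28, the last as a limit since its unirradiated signal was at background. SNT2 gave 3.57, MOT1 4.13, USO1 2.44, SMC5 2.32 and RNR1 1.54. The RNR1 difference missed the threshold without WT 60 min replicate 1.

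The response of WT differed from that of snf1 in 1136 probe sets. FLO1 gave 5.19, HSP12 2.67, HSP26 2.65 and SNO4, at background in unirradiated WT, 3.85. PEX18, a peroxisomal import factor, gave 4.46, WT being near background throughout and snf1 reading 4.02 and 3.37 at 60 min, against 8.01 and 7.93 unirradiated. MIG2, a glucose repressor, gave -3.43, RNR1 -1.57, PLM2 -1.77 and RRN11 -2.64.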

How the results depend on the processing

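Under array weights, which give arrays that depart from their group less weight, 248 probe sets were called with both 60 min arrays, 1714 with replicate 1 alone, 245 held in each, 128 against 30 min, 261 against the rad4 response and 548 against the snf1 response. The 8 WT arrays alone gave 672 calls, and 689 against 30 min. The 4 arrays of the contrast gave 0 by limma, with 947 at an unadjusted p under 0.05, and the arrays of the strain comparisons alone gave 178 against rad4 and 538 against snf1. Leaving out 1 array at a time gave 941 to 2376 calls with both arrays, 524 to 765 with replicate 1 alone, 1934 to 2059 with replicate 2 alone, 337 to 422 held, 592 to 2109 against 30 min, 488 to 1718 against rad4 and 707 to 1548 against snf1. Of 91 genes named and called at 60 min, 59 kept their call with array weights, 54 with the 8 WT arrays alone, 79 without unirradiated replicate 1, 78 without unirradiated replicate 2, and 90 each with median centring, quantile normalization, no filter and the replicate block.

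The sign of SML1, not called, turned to 0.028 with median centring and 0.034 with quantile normalization. With 1 array left out, the change ran between -0.55 and 0.17 for DIF1, -0.12 and 1.44 for RAD2, -0.10 and 1.63 for UFD1, -0.27 and 3.40 for BTN2, -0.16 and 1.53 for ATG8, -1.86 and 0.81 for FET3, -0.50 and 2.32 for FIT2 and -3.07 and 0.025 for PHO3. The ends come from the 60 min arrays alone.

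With the replicate number as a block the counts were 1696 with both arrays, 972 and 2338 with each alone, 574 held, 1516 against 30 min, 975 against rad4 and 1183 against snf1. The block took away the call of HHO1 among the genes named at 60 min. Deviations of same-numbered WT arrays correlated at -0.0151 to 0.223 between 60 min and the other WT groups and at 0.503 to 0.714 among unirradiated, 15 and 30 min, and with 2 arrays a group the numbers carry no label of a shared culture or day.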

Other observations

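Further gene groups are given by their counts at 60 min, to be read beside the shares over all probe sets, which were 12.1% higher and 18.5% lower with both arrays and 4.13% and 6.47% held. Of 14 genes in the list of photolyase and base damage repair, 6 were higher and 0 lower with both arrays and 2 rises held. This list also takes in PLM2, a transcription factor, and its rise was among those held. Translesion and postreplication repair gave 3 higher and 1 lower of 13 and 1 held rise. Meiosis and sporulation genes, which are mostly silent in growing haploid cells, gave 8 higher and 2 lower of 35, and 3 rises held. Genes of RNA polymerases I and III, which make ribosomal and transfer RNA, gave 10 lower and 0 higher of 31, with 2 falls held, and transfer RNA synthetases and translation factors gave 18 lower and 1 higher of 39, with 4 falls held. The flocculins and regulators of filamentous growth gave 5 lower and 1 higher of 16, with 4 falls and 1 rise held, and mating genes gave 8 lower and 2 higher of 28, with 4 falls held.

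On replicate 2 alone 23.5% of all probe sets were lower and on replicate 1 alone 10.6%. Phosphate genes had 11 of 22 lower on replicate 2 alone, 0 lower on replicate 1 alone and none held, and purine synthesis had 9 of 21 lower on replicate 2 alone and 1 on replicate 1 alone. Cell wall genes gave 11 of 26 lower on replicate 2 alone, 3 on replicate 1 alone and 2 held falls. Of 15 genes of the TCA cycle, 4 were higher with both arrays, 6 on replicate 2 alone and 1 on replicate 1 alone, and 1 rise held. Glycolysis gave 1 of 20 lower with both arrays, 6 lower on replicate 2 alone and none held, oxidative phosphorylation gave 4 higher and 2 lower of 37, with 2 rises and 1 fall held, and the ergosterol pathway gave 2 higher and 2 lower of 25, with 1 rise held. Of 10 commonly used reference genes, 2 were lower with both arrays and none held.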
